A study of Homo sapiens with 16 samples.

Results

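In Hs578T cells, 1823 of 55219 H3K27ac regions carried a peak in both lists of untreated control cells and in neither list of TWEAK-treated control cells, without meeting the same rule in MDA-MB-231 control cells. These 1823 regions, hereafter members, were chosen by the presence or absence of peaks in the 8 control lists, so their pattern in those lists is a description and not a result. The same loss rule was met by 4.65% of all consensus regions in Hs578T control and by 4.49% in MDA-MB-231 control cells. Both lines are established triple-negative breast cancer (TNBC) cell lines, often described as mesenchymal-like. H3K27ac ChIP-seq had been performed on 8 groups with 2 replicates each: MDA-MB-231 and Hs578T, as CRISPR control or as Fn14 knockout (KO) cells, untreated or given TWEAK at 10 ng/ml for 48 h after starvation in a reduced-serum medium. The Fn14 KO cells had been made with the inducible lentiviral CRISPR vector TLCV2 and a pair of guides against TNFRSF12A, the gene of Fn14. The study lists the KO genotyping primers as used on CRISPR clones. How many clones the KO cells stand for, and the vector of the control cells, are not given in the sources used here. The 16 lists held 39544 to 47197 peaks, and no reads, so depth is unknown. TNFRSF12A itself had a peak within 2 kb of a start site in 16 of 16 lists, which is no check of the knockout, since a peak list does not show small edits of the gene.

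TWEAK is a cytokine of the TNF family that binds the receptor Fn14 on the cell surface and activates NF-κB and MAP kinase signalling. Acetylation of H3K27 marks active promoters and enhancers, and its loss at an enhancer usually accompanies reduced activity of that element. Enhancers are bound by transcription factors such as AP-1, TEAD, RUNX and C/EBP, each of which recognises a short sequence.

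To show what the members look like as DNA, the 200 bases in the middle of the shared untreated peak are given for 5 of the 6 members with the strongest untreated peaks in Hs578T, read from the plus strand of hg38. Each is named after the protein-coding gene with the nearest start site. Capitals mark matches, on either strand, to 14 motifs that were searched. The stretches are chr3:66140722-66140921 (SLC25A26), chr17:10114847-10115046 (GAS7), chr6:167216095-167216294 (UNC93A), chr15:66611423-66611622 (LCTL) and chr1:227416335-227416534 (CDC42BPA).
SLC25A26: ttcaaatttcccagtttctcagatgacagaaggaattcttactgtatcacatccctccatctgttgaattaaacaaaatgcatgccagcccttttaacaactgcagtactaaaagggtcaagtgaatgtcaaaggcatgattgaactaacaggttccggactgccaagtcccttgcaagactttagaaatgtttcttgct
GAS7: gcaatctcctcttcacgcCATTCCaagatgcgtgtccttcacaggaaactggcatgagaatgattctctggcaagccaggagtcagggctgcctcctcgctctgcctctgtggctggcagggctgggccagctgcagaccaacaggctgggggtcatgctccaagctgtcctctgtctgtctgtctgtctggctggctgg
UNC93A: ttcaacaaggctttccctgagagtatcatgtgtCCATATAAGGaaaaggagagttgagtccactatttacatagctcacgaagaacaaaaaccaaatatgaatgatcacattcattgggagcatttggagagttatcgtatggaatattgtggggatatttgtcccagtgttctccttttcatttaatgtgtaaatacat
LCTL: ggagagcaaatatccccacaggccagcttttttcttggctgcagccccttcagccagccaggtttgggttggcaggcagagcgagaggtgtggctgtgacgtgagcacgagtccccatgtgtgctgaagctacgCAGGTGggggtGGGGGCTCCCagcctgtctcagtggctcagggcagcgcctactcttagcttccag
CDC42BPA: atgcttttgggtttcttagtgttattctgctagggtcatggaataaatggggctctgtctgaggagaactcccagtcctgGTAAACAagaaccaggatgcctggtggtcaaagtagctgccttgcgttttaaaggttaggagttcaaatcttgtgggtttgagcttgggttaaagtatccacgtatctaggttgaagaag
The capitals mark a TEAD match near GAS7, a CArG box (the SRF motif) near UNC93A, an E-box and an NF-κB match near LCTL and a forkhead match near CDC42BPA. The SLC25A26 stretch held none of the 14 motifs. No match was shared between any pair of these stretches, and a match is not evidence of binding.

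The members were among the weaker peaks of untreated Hs578T cells. Their median fold enrichment, the authors' ratio of signal to local background, was 3.25 in the first untreated control list and 3.12 in the second. Regions with a peak in all 4 Hs578T control lists, called kept regions here (35028 regions), had medians of 6.63 and 6.31. The lower of the 2 untreated −log10 q-values, used here as the strength of a member, ranged from 1.03 to 20.9 with a median of 1.94, against a median of 11.1 in kept regions and 2.49 in the 742 regions lost in both lines. The 5 members closest to the calling threshold had strengths of 1.03 to 1.06. Just outside the rule, the 5 weakest regions with 1 TWEAK peak had −log10 q-values of 1.05 to 1.07 in that list. Of the regions with a peak in both untreated lists, members made up 29.6% at strengths from 1 to 1.5, 22.2% from 1.5 to 2, 12.8% from 2 to 3, 4.54% from 3 to 5 and 0.225% above 5. A total of 59 members lay above 5. The number of members itself depended on single lists, being 2868 without the first untreated Hs578T control list, 3377 without the second and 3311 without the second TWEAK list.

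The strongest members were nearly all acetylated in MDA-MB-231 as well. Of the 12 strongest, 11 had a peak in both MDA-MB-231 control untreated lists. None of these 11 had met the loss rule in MDA-MB-231, since a weak peak was still called in 1 TWEAK list (6 regions) or in both (5 regions).
The member in an intron of SLC25A26, the mitochondrial carrier of S-adenosylmethionine, had folds of 7.03 and 6.26 in untreated Hs578T control cells. In MDA-MB-231 control cells the same region had 6.77 and 5.94 untreated and 2.88 in the only TWEAK list with a peak.
The member at an internal start site of GAS7, a growth arrest-specific gene, had folds of 8.72 and 6.47 in untreated Hs578T control cells, and 8.17 to 10.2 over the 4 Hs578T Fn14 KO lists. Its MDA-MB-231 control folds were 7.11 and 5.87 untreated against 3.77 in the first TWEAK list, with no peak in the second.

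Other strong members lay far from genes. The member 52.5 kb from UNC93A, a membrane protein gene, had folds of 6.58 and 8.63 in untreated Hs578T control cells and 11.1 or more in each of the 4 Hs578T Fn14 KO lists, all above both control values. In MDA-MB-231 control lists it had 8.48 and 10.6 untreated against 3.09 in the only TWEAK list with a peak. The member 96.7 kb from the nearest start site of CDC42BPA, a kinase that acts downstream of the small GTPase CDC42, had folds of 6.99 and 6.19 in untreated Hs578T control cells and no TWEAK peak. In MDA-MB-231 control cells it had 11.4 and 11.6 untreated against 3.36 and 3.46 with TWEAK, and all 4 MDA-MB-231 Fn14 KO values lay between 4.31 and 5.35. The member 274 kb from IRX1, a homeobox transcription factor, showed the same order, with MDA-MB-231 control values of 10.0 and 9.43 untreated against 3.06 and 3.81 with TWEAK. The member 173 kb from HAS2, the hyaluronan synthase, had 8.45 and 8.41 untreated and 3.10 in the only TWEAK list with a peak.
The member nearest to AMY1C, an amylase gene 1349 kb away, was the one of the 12 without MDA-MB-231 peaks in both untreated lists. Its Hs578T folds were 5.54 and 5.70 in untreated control cells and 3.87 to 4.98 over the Fn14 KO lists. In MDA-MB-231 it had a peak in 1 of 4 control lists, with a fold of 3.11, and in 1 of 4 Fn14 KO lists, with 2.91. All 12 had a peak in all 4 Hs578T Fn14 KO lists.

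**Figure D1:**
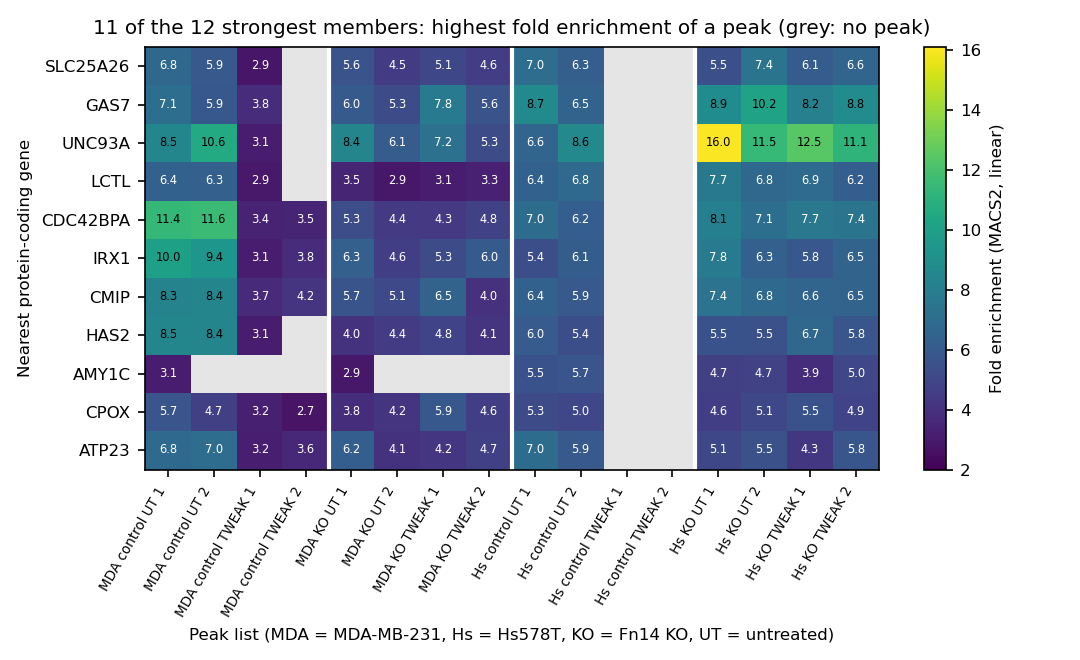
The heat map plots the fold enrichment (linear, MACS2) of 11 of the 12 strongest members (rows, named by nearest gene) in the 16 peak lists (columns), with grey where a list had no peak. The columns of Hs578T control TWEAK are grey by the rule, and the MDA-MB-231 control TWEAK columns hold either no peak or values between 2.74 and 4.16.

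Where peak height could be compared in MDA-MB-231 control cells, most members had lower peaks with TWEAK there too. This covers the 232 members (12.7%) with a peak in all 4 MDA-MB-231 control lists, and no height can be compared for the 789 without a peak in any of them. The median fold of the 232 in those lists was 4.05 and 4.53 untreated and 3.25 and 3.24 with TWEAK. Both TWEAK medians lay below both untreated ones. Over the same 4 lists, the medians of all 32407 regions with 4 peaks were 6.55 and 7.43 untreated and 7.28 and 7.51 with TWEAK. Per region, the median log2 ratio of TWEAK to untreated fold was −0.37 at the members (quartiles −0.62 and −0.15), with 205 of 232 below 0 (88.4%). Across all regions with 4 peaks it was 0.06, with 43.5% below 0, and at kept regions of strength under 3 it was 0.17, with 29.3% below 0. In 159 of the 232 (68.5%) both TWEAK values lay below both untreated ones, against 26.3% of all regions with 4 peaks.
At the 20 members of strength 5 or more the median was −0.85, and 20 of 20 had both TWEAK values below both untreated ones. Without any 1 of the 4 lists the members' median lay between −0.42 and −0.29. Because the MDA-MB-231 control lists entered the rule, these values are given without a test.
In the Fn14 KO lists the medians of the members lay close to those of all regions. The median log2 ratio in MDA-MB-231 Fn14 KO was −0.03 over the 316 members with 4 peaks and −0.07 over all regions with 4 peaks. In Hs578T Fn14 KO cells it was −0.01 over 959 members and −0.01 over all.

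**Figure D2:**
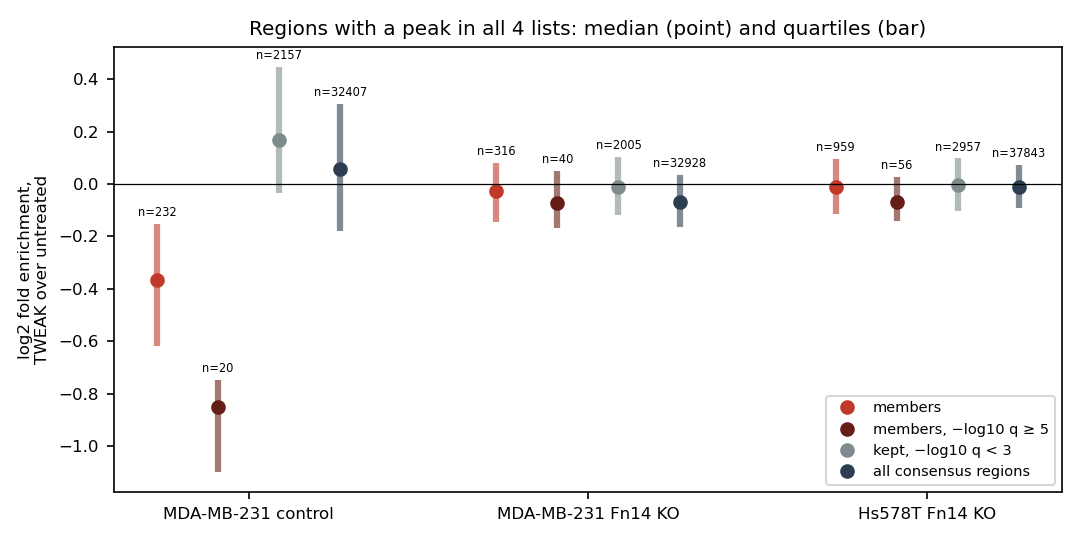
The plot gives the log2 ratio of fold enrichment, TWEAK over untreated, for regions with a peak in all 4 lists of a line and genotype (points, medians over regions; bars, quartiles; n, regions). The members lie below 0 in MDA-MB-231 control, at −0.37, and close to 0 in both Fn14 KO lines.

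Presence in the MDA-MB-231 control lists varied widely among members. A total of 789 members (43.3%) had no peak in any MDA-MB-231 control list, 802 had one in 1 to 3 lists and 232 (12.7%) in all 4. The single lists held 30.6% and 48.0% of members untreated and 22.6% and 22.8% with TWEAK, so the untreated lists were both higher, although regions lost in MDA-MB-231 had been taken out. Of the members, 465 (25.5%) had MDA-MB-231 control peaks in untreated lists alone, 39 (2.14%) in TWEAK lists alone, and 7 were gained there, with peaks in both TWEAK lists and neither untreated list. Each of the 465 had a peak in only 1 untreated list, since a region with both would have met the loss rule. That list was the second for 356 and the first for 109, and these lists held 44585 and 40603 peaks. Regions with TWEAK peaks alone had no such exclusion. The share without any MDA-MB-231 control peak was 52.9% at strengths under 1.5 and 13.6% above 5. Members without MDA-MB-231 control peaks were narrower as merged regions (median 965 bp) than those with 4 (1472 bp). The merged width includes the MDA-MB-231 peaks by which they were split.

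Whether the regions respond to TWEAK without its receptor was asked in the Fn14 KO lists. Their peaks had entered the merging that set the region boundaries, but not the presence rule. In Hs578T Fn14 KO cells a peak was present at 73.6% and 71.8% of members in the untreated lists (mean 72.7% ± 1.24, SD, n = 2) and at 73.2% and 73.3% in the TWEAK lists (73.3% ± 0.0388, n = 2). The TWEAK values lay between the untreated ones. The difference was 0.576 percentage points, with p = 1 in an exact two-sided permutation test over 6 arrangements, whose smallest possible p is 0.333. The covered share of member length was 52.0% and 47.9% untreated and 51.1% and 48.9% with TWEAK, a difference of 0.0312 points (exact permutation p = 1). At the 959 members with a peak in all 4 lists, the median fold was 3.64 and 3.44 untreated and 3.53 and 3.53 with TWEAK, a difference of −0.00902 (exact permutation p = 1). These designs cannot reach a p of 0.05. The study's methods call the ChIP-seq replicates of its cell lines biological.
By the loss rule applied to Hs578T Fn14 KO lists, 22 members (1.21%) were lost and 38 (2.08%) were gained, against 0.829% and 1.05% of all consensus regions. In MDA-MB-231 Fn14 KO lists, 47 members (2.58%) were lost and 9 (0.494%) were gained, against 1.35% and 0.321% of all consensus regions. In both lines the members exceeded the background in both directions. That background includes the stronger kept regions, of which 0.197% were lost and 0.268% gained in Hs578T Fn14 KO lists. No share was taken for regions of like strength. Of regions lost in both lines, 0.809% were lost and 1.35% gained in Hs578T Fn14 KO lists, and 3.77% and 0.809% in MDA-MB-231 Fn14 KO lists. The excess in MDA-MB-231 Fn14 KO lists, and that of gains in Hs578T Fn14 KO lists, was thus not particular to members.

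The MDA-MB-231 Fn14 KO lists held fewer members and were uneven. A peak was present at 52.9% and 27.4% of members untreated and at 36.1% and 31.8% with TWEAK. Both TWEAK values lay between the untreated ones, whose lists held 46295 and 39544 peaks. Over the 8 Fn14 KO lists of both lines the TWEAK effect was −2.81 points (exact permutation test over 36 arrangements, p = 0.889, smallest possible 0.0556). The effect in Hs578T minus that in MDA-MB-231 was 6.77 points (exact permutation p = 0.833), and it turned to −6.00 without the first MDA-MB-231 Fn14 KO untreated list. All 6 tests had Benjamini-Hochberg adjusted permutation p-values of 0.75 or 1.

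**Figure D3:**
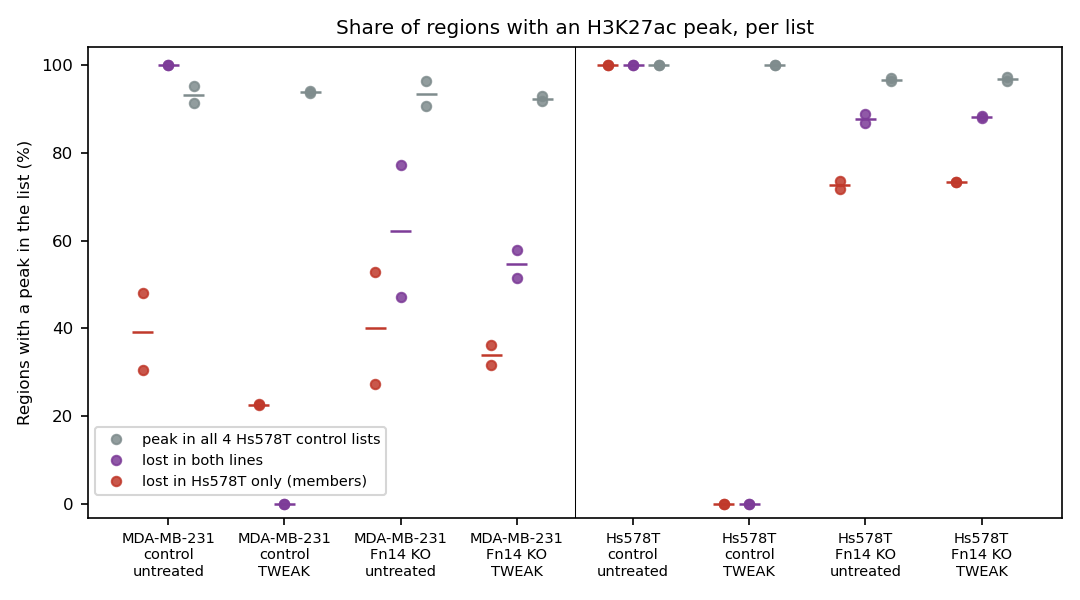
The plot gives the share of regions with a peak in each of the 16 lists (points, lists; bars, means of 2), for members, regions lost in both lines and kept regions. Members sit between 71.8% and 73.6% in the 4 Hs578T Fn14 KO lists, with untreated and TWEAK lists at the same level.

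A smaller share of members than of regions lost in both lines had a peak in each of the 4 Hs578T Fn14 KO lists, in a design that cannot reach a p of 0.05. The difference was −15.1, −14.9, −15.2 and −14.6 percentage points in the 4 lists, lower for members in 4 of 4 (mean −14.9, exact sign-flip permutation p = 0.125, the smallest that 4 lists allow, adjusted 0.75). All 4 lists scored the same 2 fixed sets of regions, so the agreement between lists is not independent support for a difference. Members also had weaker untreated peaks than regions lost in both lines, with a median strength of 1.94 against 2.49. Their merged regions were narrower, with a median width of 1095 bp against 1306.5 bp. That width spans the merged peaks of all 16 lists and is not the width of the untreated peaks. At strengths from 1.5 to 2, a peak in all 4 Hs578T Fn14 KO lists was present at 45.9% of members, 63.1% of regions lost in both lines and 54.7% of kept regions. From 3 to 5 these shares were 74.4%, 89.1% and 90.5%, and above 5 they were 94.9%, 98.4% and 99.6%. The order of members below both other sets held in all 5 strength classes. Regions lost in both lines had, by their rule, peaks in both untreated MDA-MB-231 control lists, whereas 43.3% of members had no MDA-MB-231 control peak. Of the 232 members with 4 such peaks, 87.5%, 88.4%, 88.8% and 89.2% had a peak in the 4 Hs578T Fn14 KO lists in turn. For regions lost in both lines these shares were 88.7%, 86.7%, 88.4% and 87.9%. Among members without any such peak they were 64.8%, 62.4%, 64.5% and 62.4%. What sets these shares was not tested.
In all, 959 members (52.6%) had a peak in 4 Hs578T Fn14 KO lists, 297 in 3, 218 in 2, 158 in 1 and 191 (10.5%) in none. The 191 had a median strength of 1.66 and a median width of 772 bp, against 2.21 and 1273 bp for the 959. These merged widths include the Hs578T Fn14 KO peaks being counted.

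**Figure D4:**
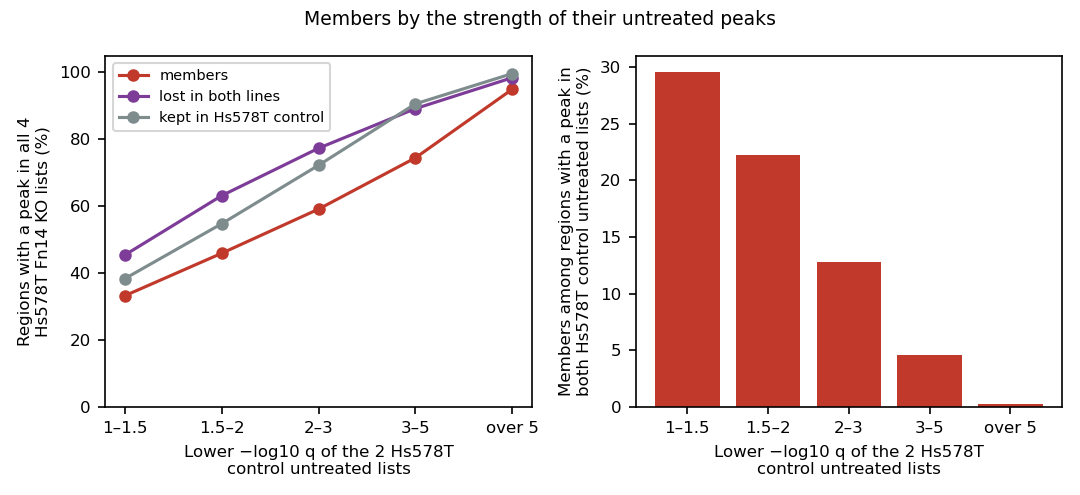
The left panel plots the share of regions with a peak in all 4 Hs578T Fn14 KO lists by strength class (the lower −log10 q of the untreated Hs578T control lists), and the right panel the share that members make up of all regions with both untreated peaks. The left curves rise with strength, from 33.2% to 94.9% for members, and the right bars fall from 29.6% to 0.225%.

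Most members lay away from promoters. Within 2 kb of a protein-coding start site (GENCODE 44) lay 200 members (11.0%), against 33.8% of kept regions and 25.1% of all consensus regions. A further 177 (9.71%) touched an exon, 697 (38.2%) lay in introns and 749 (41.1%) between genes. Regions lost in both lines had nearly the same make-up, with 9.97% at start sites. Of the 4688 kept regions with a strength under 3, nearer to that of members, 615 lay at start sites. The contrast with kept regions was thus smaller among weak peaks. The median distance to a start site was 26.8 kb for members and 13.0 kb for kept regions, and 35.2% of members were over 50 kb away. Kept regions as a whole had stronger peaks, and distances were not compared at like strength.
Among the 6 strongest members at start sites were, besides that of GAS7, those of CMIP, TMEM139, KCNMB3 and LSP1. At the internal start site of CMIP, an adaptor protein gene, the folds were 6.36 and 5.94 in untreated Hs578T control cells, 6.48 to 7.36 over the Hs578T Fn14 KO lists, and in the MDA-MB-231 control lists 8.32 and 8.41 untreated against 3.68 and 4.16 with TWEAK. At TMEM139, a membrane protein gene, they were 6.08 and 4.76 in untreated Hs578T control cells, and 5.64 and 5.83 untreated against 2.54 in the only TWEAK list with a peak in MDA-MB-231 control cells.
At LSP1, which encodes an actin-binding protein of leukocytes, they were 4.55 and 4.38 in untreated Hs578T control cells, and in the MDA-MB-231 control lists 6.31 and 7.29 untreated against 3.42 and 3.39 with TWEAK. KCNMB3, a regulatory subunit of the BK potassium channel, differed: its folds were 4.47 and 4.07 in untreated Hs578T control cells, 3.65 to 5.98 over the Hs578T Fn14 KO lists, and in MDA-MB-231 control cells 3.85 in 1 untreated list and 2.96 in 1 TWEAK list.

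Most members had no other member within 50 kb, and the same count was not made for other sets of regions. The members fell into 1670 loci, a locus being members at most 50 kb apart. Of these loci, 1531 held 1 member, 125 held 2 and 14 held 3. Of these 14, the 8 described here come first with chromosome names sorted as text and were not chosen by strength. They lay at NRP1, a co-receptor of semaphorins and VEGF, at ZCCHC24, near NTF3, which encodes neurotrophin-3, at APOLD1 and DDX47, at TLE3, a transcriptional co-repressor, at ITGAE and NCBP3, near IGFL1 and IGFL2, and at B4GALT5 and PTGIS, the prostacyclin synthase gene. At NRP1 the 3 members spanned 79.8 kb beside 5 kept regions, and all 3 had peaks in all 4 Hs578T Fn14 KO lists. Near NTF3 the 3 members spanned 32.6 kb without a kept region, all 3 had peaks in all 4 Hs578T Fn14 KO lists, and none had a peak in any of the 8 MDA-MB-231 lists. At B4GALT5 and PTGIS all 3 again had peaks in all 4 Hs578T Fn14 KO lists, and the strongest of them reached a −log10 q of 7.59. At APOLD1 and DDX47, by contrast, none of the 3 had peaks in all 4 Hs578T Fn14 KO lists or in any MDA-MB-231 control list. No region gained with TWEAK in Hs578T lay within these 8 loci. They held 3 to 12 consensus regions each, members included, and 5.09% of all consensus regions were gained. Too few regions lay there to set this absence apart from that share.
Across members, 48.4% had a kept region within 12.5 kb, and 194 (10.6%) had a region gained with TWEAK in Hs578T within 50 kb. The same shares were 53.8% and 9.57% for regions lost in both lines, and 15.7% of kept regions had a gained region within 50 kb.
The 4 widest members by bases under untreated peaks had strengths of 4.06 (nearest to CEBPB), 3.07 (NEDD4L), 1.69 (GPI) and 1.69 (EPHA2), against a median of 1.94 over all members. The one 50.7 kb from CEBPB, a C/EBP transcription factor gene, had 2837.5 bp under peaks on average, with folds of 3.57 and 4.01 in untreated Hs578T control cells and 5.06 to 5.43 over the Hs578T Fn14 KO lists. The one in NEDD4L, a ubiquitin ligase gene, had 2403.5 bp under peaks, with 4.01 and 3.66 against 4.27 to 5.32. In both, every Hs578T Fn14 KO value lay above both untreated control values. The one in an intron of GARRE1, 40.3 kb from GPI, had a peak in 1 Hs578T Fn14 KO list, and the one in EPHA2, a receptor tyrosine kinase gene, had a peak in 3.

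Members lay within 50 kb of a start site of 2088 of 19676 protein-coding genes (10.6%), and this share is the background for the 13 gene lists. A list gene need not be the gene nearest to its member. Nearer start sites were those of S1PR2 for ICAM1, THSD8 for JUNB, PLA2G6 for MAFF, RNF214 for TAGLN and CAVIN1 for STAT3. They were those of SRSF3 for CDKN1A, SGCA for COL1A1, RPS26 for ERBB3 and LIN7C for LGR4. The TGF-β and SMAD list had 7 of 20 genes with a member near a start site (35.0%): SMAD6 and SKIL, both inhibitors of SMAD signalling, the ligands BMP4 and TGFB2, the receptor BMPR2, LTBP2 and SMAD2. The list of actin cytoskeleton and smooth muscle genes had 8 of 21 (38.1%): MYH9, LPP, ACTN1, TAGLN, VCL, CALD1, MRTFA and LMOD1. By comparison 3 of 20 and 2 of 21 genes of these lists had a region gained with TWEAK in Hs578T within 50 kb, against 12.8% of all genes. Genes with an active start site in untreated Hs578T cells (a peak within 2 kb in both lists) had a member nearby in 13.3% of cases, and 20 of 20 TGF-β genes and 17 of 21 actin genes were of that kind. No set test was run, and the lists are short and were chosen with earlier results of these data known.
The member 31.4 kb from a start site of SMAD6, in its intron, had a strength of 2.79 and peaks in all 16 lists but those of Hs578T control TWEAK. The one 7.24 kb from BMP4, a bone morphogenetic protein gene, had a strength of 2.43, peaks in all 4 Hs578T Fn14 KO lists and none in the 8 MDA-MB-231 lists. The one 36.6 kb from BMPR2 had the same list pattern at a strength of 1.72, and the one 25.8 kb from SKIL had 2.61.
Among the actin genes, the strongest members lay 44.6 kb from MYH9, the heavy chain of non-muscle myosin, at a strength of 2.27, and 14.8 kb from LPP, a focal adhesion gene, at 2.08. The member at a start site of ACTN1, α-actinin, had a strength of 1.70 and a peak in 4 of 4 Hs578T Fn14 KO lists, and the one 35.4 kb from TAGLN, transgelin, 1.67 and 4 of 4.
Of the AP-1 and MAF factors 4 of 15 genes (26.7%) had a member nearby: MAFF, JUNB, MAF and FOS, with strengths of 1.84, 1.69, 1.32 and 1.28, close to the calling threshold. Of the axon guidance genes it was 5 of 21 (23.8%), led by NTN4, a netrin, at 2.50, SLIT2 at 2.22 and PLXND1, a plexin, at 2.06. EPHA2 and NRP1 were the others of that list.
The YAP and TEAD list had 3 of 15 genes (YAP1, TEAD1 and AMOTL1), with strengths of 1.36 to 2.22. The luminal and basal identity list had 4 of 23 (17.4%), ELF5, ERBB3, KRT18 and KRT8, the keratins sharing 1 member, which lay in an intron of KRT8. The cell cycle list had 3 of 20 (CDK1, CCND3 and CDKN1A) and the WNT list 3 of 21 (LRP5, TCF7L2 and LGR4). The member 13.1 kb from LRP5, a WNT co-receptor, was the strongest of all members named from the lists, at 6.61, with peaks in all 4 Hs578T Fn14 KO lists.
The NF-κB and TNF pathway list had 3 of 22 genes with a member (13.6%) and 10 of 22 (45.5%) with a gained region. The members lay 32.1 kb from ICAM1, an adhesion molecule, 37.1 kb from BIRC3, an inhibitor of apoptosis, and 10.7 kb from MAP3K14, the kinase NIK. The BIRC3 member had no peak in any of the 4 Hs578T Fn14 KO lists. The lowest shares were those of growth factors and receptor kinases (1 of 20, KITLG), interferon and STAT genes (1 of 17, STAT3), collagens and extracellular matrix (2 of 26, COL1A1 and TNC) and mesenchymal transcription factors (2 of 21, TWIST2 and SNAI2). All 4 of these shares lay below the 10.6% of all genes, but each rests on 1 or 2 genes. None can be told from that background. Among genes with an active start site they were 1 of 15, 1 of 16, 2 of 18 and 1 of 9 in the same order, against 13.3%.

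In the shares of RUNX, E-box and NF-κB matches, members lay closer to other lost regions than to gained ones. In those of AP-1, C/EBP and forkhead matches they lay closer to gained ones. Windows of 500 bases were centred on the bases shared by both defining peaks, away from start sites, which gave 1597 windows of members. The RUNX motif (TGTGGT, either strand) occurred in 41.1% of them, against 43.1% of regions lost in both lines and 43.2% of regions lost only in MDA-MB-231. It occurred in 32.3% of regions gained with TWEAK in Hs578T and in 34.7% of kept regions of strength under 3. The AP-1 motif (TGANTCA) did not share that order. It occurred in 41.4% of members and 42.8% of gained regions, against 36.1% of regions lost in both lines, 39.3% of those lost only in MDA-MB-231 and 47.4% of weak kept regions. The E-box searched was CACCTG, a form bound by ZEB and SNAI factors. It occurred in 34.5% of members, 37.3% of regions lost in both lines and 32.7% of those lost only in MDA-MB-231. Gained regions had 29.7% and weak kept regions 28.7%.
The NF-κB motif was found in 8.39% of members, 8.58% of regions lost in both lines, 7.57% of those lost only in MDA-MB-231, 10.6% of weak kept regions and 27.3% of gained regions. The TEAD motif (GGAATG) occurred in 31.6% of members and the C/EBP motif in 25.6%. Both were within 1 percentage point of weak kept regions, which had 32.4% and 25.9%. C/EBP matches occurred in 26.0% of gained regions, 24.1% of regions lost in both lines and 24.0% of those lost only in MDA-MB-231. Forkhead matches occurred in 11.2% of members and 11.1% of gained regions, against 10.1% of regions lost in both lines. Regions lost only in MDA-MB-231 had 10.2%. Of the remaining motifs, STAT occurred in 15.7% of members, the MAF motif in 8.08%, the CArG box in 3.19% and ETS in 2.13%. The CTCF core occurred in 0.689%, the glucocorticoid receptor motif in 0.814% and the palindromic SMAD motif in 4 of the 1597 windows.
With windows on the middle of the region instead, RUNX matches were present in 41.5% of 1623 members and 36.3% of all 41358 consensus regions away from start sites, AP-1 in 43.6% and 43.5%, NF-κB in 8.26% and 11.2%, and the E-box in 33.5% and 31.5%. The RUNX and E-box shares were thus higher and the NF-κB share lower than among all regions, while the AP-1 shares were alike. Median GC content was 45.2% in member windows, 46.0% in regions lost in both lines, 42.6% in gained regions and 42.6% in weak kept regions, and its part in the motif shares was not tested. Members with a RUNX match and those without had the same median strength, 1.95, and a peak in all 4 Hs578T Fn14 KO lists in 54.5% and 50.6% of cases.

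**Figure D5:**
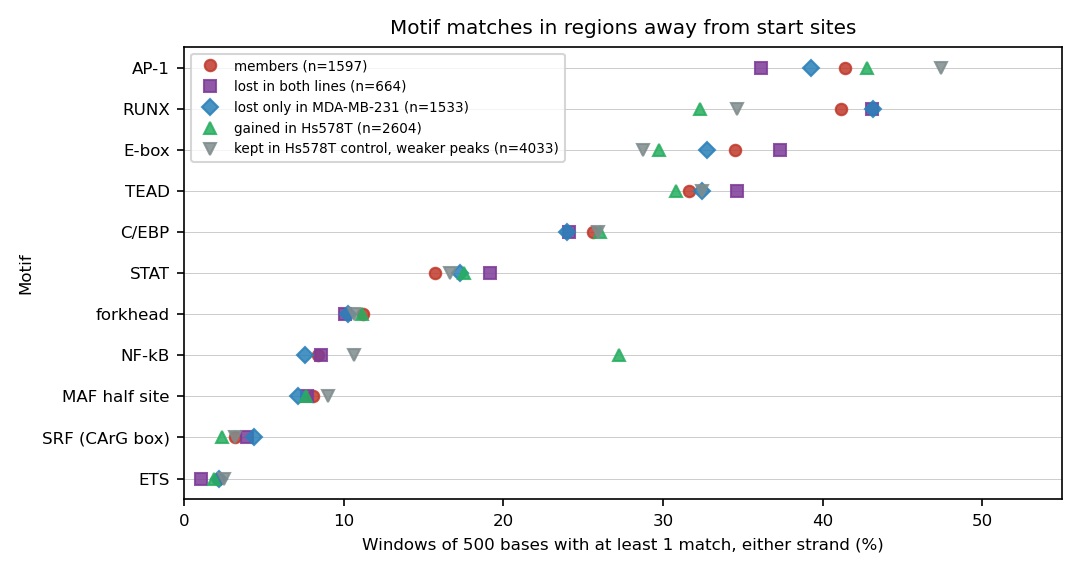
The plot gives the share of 500-base windows away from start sites with at least 1 match (x axis, percent) for 11 motifs (rows) in members, other lost regions, gained regions and weak kept regions. Members sit with the other lost regions for RUNX (41.1%) and far from the gained regions for NF-κB (8.39% against 27.3%).

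The label of the cells was checked on marker genes. Of 6 mesenchymal markers, VIM, ZEB1 and FN1 had a peak within 2 kb of a start site in all 8 Hs578T lists, SPARC in 6, and CDH2 and TWIST1 in none. Of 10 epithelial and luminal markers, 5 (EPCAM, GRHL2, GATA3, KRT8 and KRT18) had one in all 8 and 5 (CDH1, ESRP1, ESR1, PGR and FOXA1) in none. The epithelial gene CDH1 was thus without a peak, but so were the mesenchymal genes CDH2 and TWIST1. With 3 of 6 mesenchymal and 5 of 10 epithelial and luminal markers in all 8 lists, these peaks did not separate the labels.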

How the data were processed

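H3K27ac peak lists, 1 per sample, were analysed for 16 samples of 2 cell lines. Per the study's methods, the authors used Trimmomatic for trimming, Bowtie2 for alignment to hg38 and MACS2 for peak calling in each sample on its own, subtracted input and removed blacklisted regions. Versions are not given in the sources used here. The deposited values per peak were a score, the fold enrichment (a linear ratio over local background) and both the p-value and the q-value as −log10. Lists hold no reads, so depth is unknown, a region near the calling threshold can be called in one list and missed in another, and the study's DiffBind test could not be run. All peak ends lay within the hg38 chromosome lengths, and no pair of lists was identical.

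Peaks of all 16 lists were merged at 1 bp overlap (64545 regions), and the 55219 regions with peaks in at least 2 lists were kept. Members and gene lists were chosen with earlier results of these data known. Regions were annotated with protein-coding genes of GENCODE 44 (start site within 2 kb, exonic, intronic, intergenic). Coordinates are 1-based. Named items were the 12 strongest members by the lower untreated −log10 q, the 6 strongest at start sites, the 4 widest, 8 of the loci with most members and up to 4 genes per list. The sequence and values of 1 of the 12 strongest members are not reported here. Shares per Fn14 KO list were compared by exact two-sided permutation tests over lists, at a threshold of 0.05, with Benjamini-Hochberg adjustment over 6 tests. The scripts were tested on simulated peak lists. Alternatives covered the peak threshold, list length, merging, overlap, each list left out and the replicate number as a block. Python 3.11.15, numpy 2.4.6, pandas 2.3.3 and matplotlib 3.10.9 were used.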

Additional observations from a re-analysis of the deposited data

How the results depend on the processing

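The number of members and the start site share rest on a calling threshold, and depth is not recorded in the lists. No alternative with a permutation test reached a p of 0.05, and the lowest exact p was 0.125, the smallest that 4 lists allow. The number of members was 1467 to 3377 with 1 control list left out. It was 2868 without Hs578T control untreated replicate 1, 3377 without untreated replicate 2 and 3311 without TWEAK replicate 2, since the rule then asks for fewer lists. It stayed within 1.5 times of 1823 under the 5 alternatives that leave out no list and without each of the other control lists.

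The mean share of members with a peak in Hs578T Fn14 KO lists, 73.0%, became 71.5% with peaks of −log10 q of at least 2 and 75.6% with lists trimmed to 39544 peaks, and ranged from 59.3% to 77.5% with 1 list left out. The start site share became 12.8% with −log10 q of at least 2, 12.9% with trimmed lists, 13.0% when peaks had to cover 25% of a region and 8.12% within 1 kb, and was 10.1% to 12.8% with 1 list left out. The TWEAK effect on member share in Hs578T Fn14 KO lists turned to −1.05 points with trimmed lists, where both TWEAK lists lay below both untreated ones (exact permutation p = 0.333, the smallest possible). The effect on covered share turned to −0.404 points at −log10 q of at least 2, −0.980 with trimmed lists and −0.0572 with peaks up to 500 bp apart merged, and that on median fold to 0.00069 with regions merged from control lists. The cause of these changes in sign was not tested.

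With 1 list left out, the effect on member share was −0.273 to 1.42 points in Hs578T and −9.17 to 3.58 over both lines, that on covered share −2.01 to 1.99, that on median fold −0.12 to 0.085, the difference between lines −6.00 to 19.5, and members minus regions lost in both lines −20.3 to −12.4. Without MDA-MB-231 Fn14 KO untreated replicate 1, the effect over both lines was 3.58 and the difference between lines −6.00.

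With the replicate number as a block, exact sign-flip permutation p-values were 1 for the 3 Hs578T effects (0.576 points, 0.0312 points and −0.00902), 0.875 for both lines (−2.81 points) and 0.75 for the difference (6.77 points), so no call changed. The sources do not say that a number marks a shared day or batch. The correlation across regions of replicate differences between treatments was 0.0815 and 0.0542 in MDA-MB-231 control and Fn14 KO cells, −0.00497 in Hs578T control and 0.214 in Hs578T Fn14 KO cells. It was not above 0.1 in every pair of groups, so the numbers were not taken as pairs.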

Other observations

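Members were spread over the genome. On chromosomes 1 to 22 and X they made up between 3.49% (chromosome X) and 5.66% (chromosome 22) of the regions with a peak in both untreated Hs578T control lists, with 5.65% on chromosome 20 and 4.73% on chromosome 1. Among these, chromosome 1 held the most, 181 members, and chromosome 21 the fewest, 16. The remaining sequences together held 3 members of 28 such regions (10.7%).

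The 7 members that were gained in the MDA-MB-231 control lists (peaks in both TWEAK lists and neither untreated list) were weak in Hs578T, at a median strength of 1.39. In Hs578T Fn14 KO cells 57.1% and 28.6% of them had a peak in the untreated lists and 0% and 28.6% in the TWEAK lists. At members with MDA-MB-231 control peaks in untreated lists alone (465 regions), the MDA-MB-231 Fn14 KO lists held 55.9% and 19.8% untreated and 31.0% and 24.5% with TWEAK, so the TWEAK values lay between the untreated ones.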
